A study of Mus musculus with 12 samples.

Results

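The genes described here are 9 genes of fatty acid binding and uptake with the receptor Pparg, measured in 6 spontaneous lung tumours and 6 normal lungs of B6C3F1 mice aged 2 years. They are the binding proteins Fabp1, Fabp3, Fabp4 and Fabp5, the uptake receptor Cd36, the lipase Lpl, its capillary anchor Gpihbp1, the transcription factor Pparg and the lipid droplet coat protein Plin2. All 9 were on the array, among 18193 genes with a symbol, through 18 of 45037 probe sets that carry only that symbol, and the brightest of them over the 12 arrays, by its mean, stood for the gene. B6C3F1 is the cross of C57BL/6 females with C3H males used in long-term bioassays. Tissue of both groups came from animals of a National Toxicology Program bioassay of 2 years, per the labels, and none of the mice had been treated. Each sample is a piece of bulk tissue on 1 Affymetrix array, and nothing in the labels ties a sample to an animal. The p-values therefore cover only the variation among these 12 samples, which may be technical. In bulk tissue, fewer cells of a type and less RNA per cell cannot be told apart.

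Fatty acids reach cells as albumin-bound acids or are freed from circulating triglyceride by lipoprotein lipase, which Gpihbp1 carries to the capillary surface. Cd36 helps them across the membrane, small cytosolic binding proteins of the Fabp family carry them, and surplus is stored in droplets coated by Plin2. Pparg is a nuclear receptor activated by fatty acids that binds DNA with an Rxr partner. In the lung it is known for its part in the development of alveolar macrophages, which take up surfactant lipid, and several of the genes here are among its textbook targets, including Fabp4, Cd36, Lpl and Plin2.

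The median signal of an array was 152 to 165 in normal lungs and 127 to 150.2 in tumours, and the number of arrays limits the precision. Signals are MAS5 values in arbitrary units, so the level of a gene is compared only with the same probe set on other arrays. Normal lungs 2 and 4 carried transcripts of liver, with summed signals of 12 hepatocyte markers of 23414 and 28981 against 1092 to 4485 in the other normal lungs and 555 to 13462 in tumours. The Y-linked gene Eif2s3y was at 740.5 to 1638 in tumours 1, 2, 3 and 5 and at 27.4 or less on every other array, so the mix of sexes differed between the groups. Surfactant and other type II cell markers, which define lung tissue, were bright in both, with sums of 129772 to 177039 in normal lungs and 120076 to 277364 in tumours.

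Of the 9 genes, 4 were higher in tumours (Fabp4, Fabp5, Pparg and Plin2), 2 were lower (Fabp3 and Gpihbp1) and 3 did not pass the test (Fabp1, Cd36 and Lpl). A gene passed when limma gave a Benjamini-Hochberg adjusted p under 0.05 over all probe sets. Over all genes 12.2% passed as higher, 17.5% as lower and 29.6% in either direction. The groups did not overlap for 4 of the 9. Fabp5 and Pparg were higher in all tumours than in all normal lungs, as were 6.77% of all genes, and Gpihbp1 and Fabp3 were lower in all tumours, as were 11.8% of all genes. The median log2 difference was 0.78 for the 9 and -0.08 for all genes. A difference is the mean of tumours minus the mean of normal lungs in log2(signal + 16), which understates the change of dim genes, and is printed ± its standard error (6 arrays in each group). Folds come from the same scale.

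**Figure D1:**
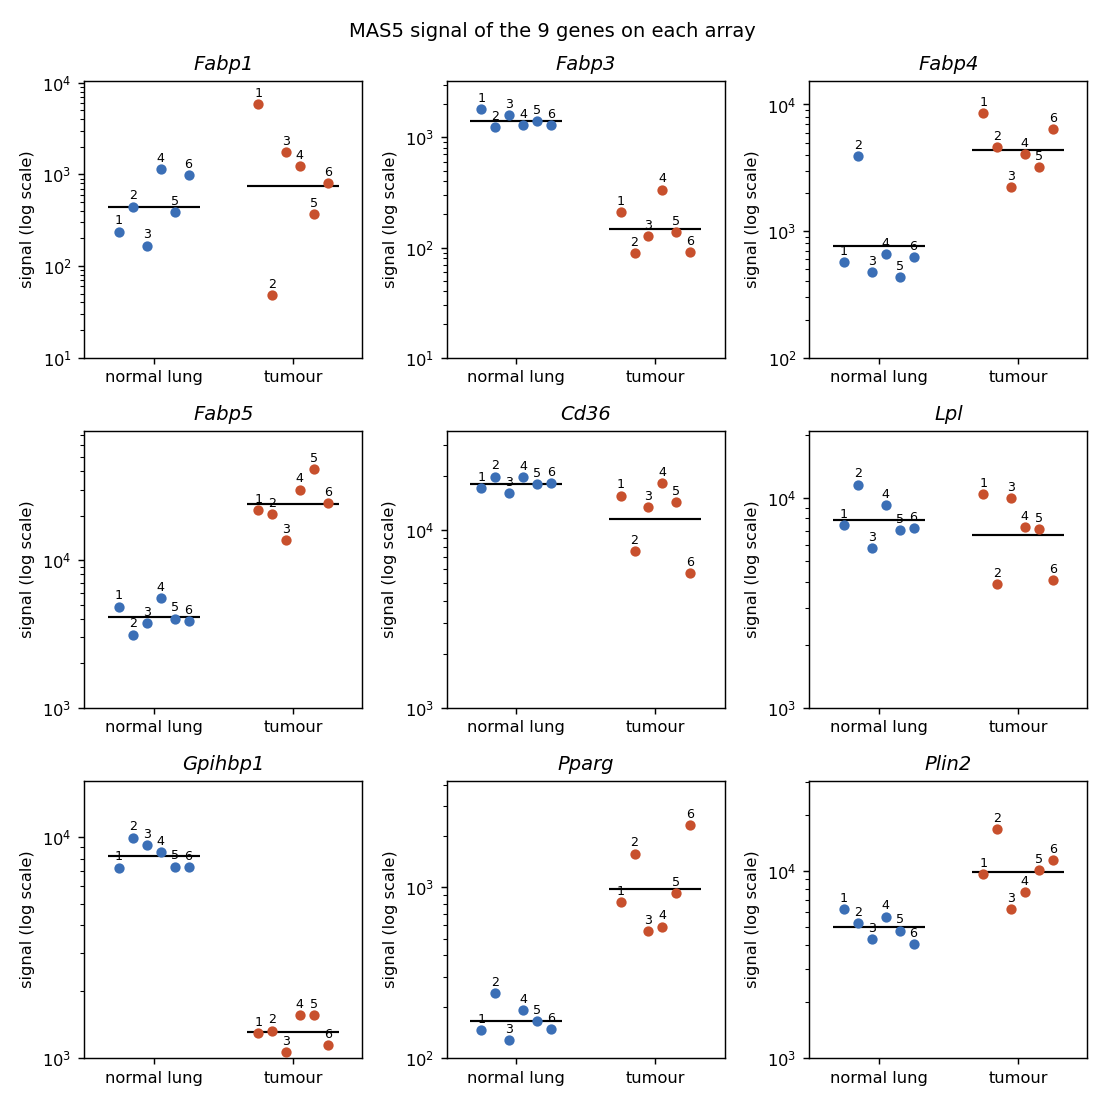
Signal of each of the 9 genes on every array, on a log axis, with arrays numbered within their group and the bar at the geometric mean of the group. Points of the groups do not overlap for Fabp3, Fabp5, Gpihbp1 and Pparg, and 1 normal lung, number 2, lies among the tumours for Fabp4.

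Promoter sequence was read because a receptor and several of its textbook targets were measured side by side. It is shown for 3 of the genes, those other than Pparg whose windows held a match to its recognition letters. The promoter table, from RefSeq on build GRCm38.p6, held 5 of the 9 genes (Fabp1, Fabp3, Cd36, Pparg and Plin2) in 7 windows, of which the 250 bases before the start of the transcript were read. The motifs searched on both strands were the half-site AGGTCA and a paired form, in which AGGNCA occurs in 2 direct copies with 1 base of any kind between them. The paired form overlaps a half-site where the free letter of a copy is T. The half-site was in 5 of the 7 windows, and in 14.0% of all 32851 windows of that length. The 5 were those of Fabp1, Cd36, Plin2 and starts 1 and 2 of Pparg itself. Fabp3 and start 3 of Pparg held no match. The paired form was in 1 of the 7, that of Fabp1, and in 0.338% of all windows. Each sequence is printed 5′ to 3′ on the strand of the gene, with the matches in capitals, which read TGACCT where the half-site lies on the other strand. The Fabp1 window is chr6:71199629-71199878 on the plus strand, that of Plin2 is chr4:86670060-86670309 and that of Cd36 is chr5:17835897-17836146, both on the minus strand.
Fabp1: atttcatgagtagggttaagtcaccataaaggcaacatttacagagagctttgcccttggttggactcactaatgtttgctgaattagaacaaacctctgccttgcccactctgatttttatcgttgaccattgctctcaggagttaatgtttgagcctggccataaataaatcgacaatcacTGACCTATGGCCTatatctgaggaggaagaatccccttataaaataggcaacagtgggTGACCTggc
Plin2: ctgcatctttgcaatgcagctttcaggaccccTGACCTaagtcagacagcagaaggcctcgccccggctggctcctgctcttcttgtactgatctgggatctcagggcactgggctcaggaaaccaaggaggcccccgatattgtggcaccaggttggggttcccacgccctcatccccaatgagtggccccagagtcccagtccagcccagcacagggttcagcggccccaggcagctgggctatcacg
Cd36: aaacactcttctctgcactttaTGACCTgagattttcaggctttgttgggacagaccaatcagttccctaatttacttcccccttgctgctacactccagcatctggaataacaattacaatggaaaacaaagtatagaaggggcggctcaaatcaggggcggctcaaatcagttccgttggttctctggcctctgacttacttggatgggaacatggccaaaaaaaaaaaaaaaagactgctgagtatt
In the Fabp1 window the paired match began 67 bases before the start, and a second half-site began 9 bases before it. The half-sites of Plin2 and Cd36 began 218 and 228 bases before the start. A match describes letters only, and no binding was measured.

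Pparg rose, and its lowest tumour lay above its highest normal lung. Its signal was 127 at the lowest, 156 at the median and 239 at the highest in normal lungs, which is near the median signal of a whole array, and 553, 871 and 2330 in tumours. The difference was 2.46 ± 0.31 (limma adjusted p = 2.99e-05), a 5.51-fold rise. Tumours differed among themselves by 4.22 times and normal lungs by 1.88 times. Tumours 6 and 2 had the highest signals, 2330 and 1581, and tumours 3 and 4 the lowest, 553 and 589.8.

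The coat protein Plin2, which marks cells that store neutral lipid, rose less. Normal lungs lay between 4049 and 6277 (median 5018) and tumours between 6228 and 16750 (median 9852). The difference was 0.97 ± 0.20 (limma adjusted p = 0.00239), a 1.96-fold rise, and 5 of 6 tumours lay above the highest normal lung. The exception was tumour 3, just below normal lung 1. The order of the tumours was nearly that of Pparg: tumours 2 and 6 held the highest 2 signals of both genes, and tumours 5, 1, 4 and 3 followed in this order for both.

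Among the binding proteins, Fabp5, the epidermal form, which is also made by macrophages, rose without overlap. It lay between 3126 and 5512 in normal lungs (median 3940), and tumours lay between 13642 and 41488 (median 23137). The difference was 2.53 ± 0.22 (limma adjusted p = 1.39e-06), a 5.79-fold rise. All tumours were above all normal lungs, and tumour 5 was highest and tumour 3 lowest. The other probe set of Fabp5 also rose without overlap (3.03 ± 0.31, limma adjusted p = 4.81e-06).

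Fabp4, the adipocyte form, also present in macrophages and capillary endothelium, rose by a similar amount but with an overlap. It lay between 434 and 3923 in normal lungs (median 594), and tumours lay between 2221 and 8508 (median 4307). The difference was 2.51 ± 0.46 (limma adjusted p = 9.27e-04), a 5.68-fold rise. The overlap came from 1 array: normal lung 2 was at 3923, and the other 5 normal lungs were between 434 and 657, below every tumour. In that lung the summed signal of 7 adipocyte markers was 2981, against 737 to 1183 in the other normal lungs and 327 to 679 in tumours. The adipocyte hormone Adipoq was at 601 in it and at 177 or less in the others. The part of fat in the Fabp4 signal of that lung was not tested, and without normal lung 2 the difference was 2.98 (limma adjusted p = 8.04e-06). Of the 3 other probe sets, 1 rose (2.53 ± 0.42, limma adjusted p = 4.03e-04) and 2, with signals of 328 or less on all arrays, did not pass (0.65 ± 0.53 and 0.71 ± 0.41). The mean over its 4 probe sets gave a difference of 1.60 (limma adjusted p = 0.0063, in a range of 8.04e-06 to 0.0151 over all alternatives).

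Fabp3, the heart and muscle form, fell. It lay between 1231 and 1807 in normal lungs (median 1344), and tumours lay between 88.3 and 336 (median 133). The difference was -3.13 ± 0.26 (limma adjusted p = 7.44e-07), 8.74-fold lower in tumours, with no overlap. Cardiac muscle sheathes the pulmonary veins of mice, and of 12 cardiac markers 11 fell as well (median difference -3.84). Their summed signal was 22686 to 37159 in normal lungs and 598 to 3524 in tumours. Tumour 4, with the highest Fabp3 of the tumours, also had the highest cardiac sum. The orders differed otherwise: tumour 2, with the lowest Fabp3 (88.3), had the next highest cardiac sum (2816). Skeletal muscle markers were low in both groups, with sums of 814 to 1464 and 398 to 887, and of 10 the creatine kinase Ckm (-3.07 ± 0.28) and the calcium pump Atp2a1 (-1.49 ± 0.36) fell and the troponin Tnni2 rose (1.49 ± 0.36). All 9 markers of interstitial fibroblasts fell too (median difference -3.13). Their summed signal was 84715 to 98895 in normal lungs and 5660 to 21459 in tumours. This sum was also highest in tumour 4 among tumours, but next highest in tumour 6 (14733), where Fabp3 was at 90.9. The parts of muscle and of fibroblasts in the fall of Fabp3 were not tested. Its other probe set, at 155 or less on all arrays, did not pass (-0.32 ± 0.31), and the mean over both gave -1.73 (limma adjusted p = 1.04e-04).

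Fabp1, the liver form, which mouse alveolar macrophages also make, was the least even of the 9. It lay between 167 and 1146 in normal lungs (median 417), and tumours lay between 48.4 and 5788 (median 1014), a spread of 120 times among tumours. The difference, 0.78 ± 0.82, did not pass (limma adjusted p = 0.553). Of the tumours, 3 lay above the highest normal lung, 1 below the lowest and 2 inside their range. Tumour 1 was at 5788 and tumour 2 at 48.4, and without tumour 1 the difference was 0.21 and without tumour 2 it was 1.51. Summed signals of 11 other alveolar macrophage markers were highest in tumour 1 (94742) and lowest in tumour 2 (30215) as well. In these sums of raw signals the brightest genes, the chitinase-like Chil3 and Cd9, weigh most. In normal lungs Fabp1 was highest in numbers 4, 6 and 2, at 1146, 980 and 445, and these were also the lungs with the most liver transcripts, with hepatocyte sums of 28981, 4485 and 23414. The other 3 normal lungs had Fabp1 at 388 or less and sums of 1762 or less. In tumour 1, where Fabp1 was at 5788, the hepatocyte sum was 733. The parts of liver and of macrophages in the Fabp1 signal were not tested. Without normal lungs 2 and 4 the difference was 1.11 and did not pass. The other probe set of Fabp1 lay between 182 and 1005 in normal lungs and between 102 and 2766 in tumours. Its spread among tumours was 27.1 times, 2 tumours lay above the highest normal lung, and it did not pass (0.38 ± 0.59, limma adjusted p = 0.703).

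**Figure D2:**
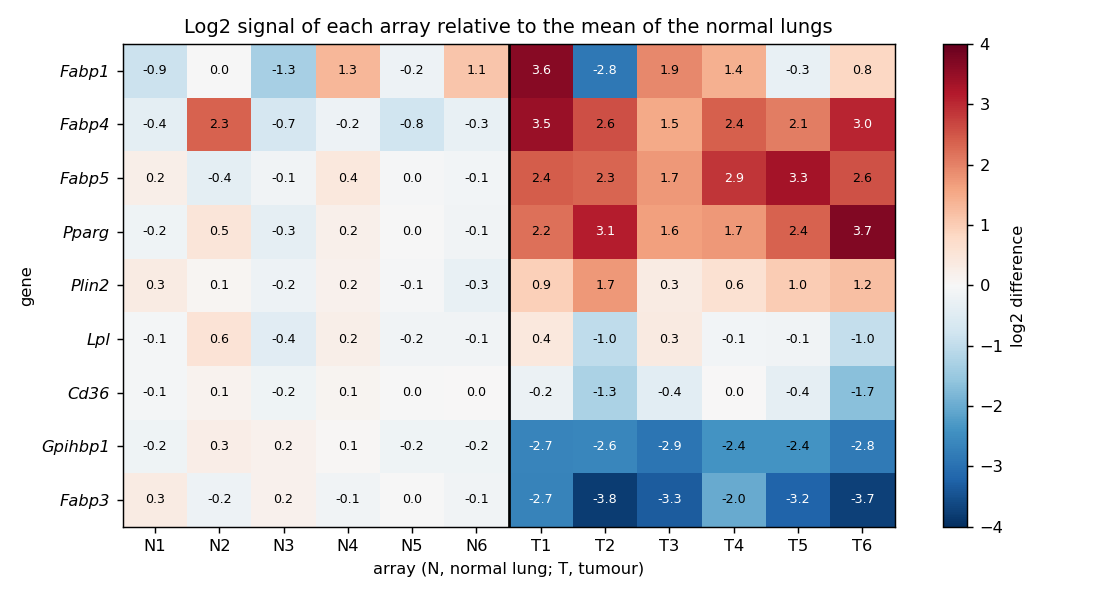
Log2 signal of each gene on each array minus the mean of the 6 normal lungs, by array (columns N1 to N6 and T1 to T6) and gene (rows), with red for higher and blue for lower. Pparg, Fabp5 and Fabp4 are red in all 6 tumours, Gpihbp1 and Fabp3 are blue in all 6, and Fabp1 differs in direction between tumours.

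At the capillary surface, the anchor Gpihbp1 fell and the lipase it holds did not pass. Gpihbp1, made by capillary endothelial cells, lay between 7268 and 9943 in normal lungs (median 7959), and tumours lay between 1065 and 1568 (median 1310). The difference was -2.63 ± 0.13 (limma adjusted p = 2.23e-08), 6.19-fold lower, with no overlap and a spread of 1.47 times among tumours. Of 18 other capillary and endothelial markers 17 fell (median difference -2.83), among them the endoglin gene Eng (-2.85 ± 0.16), the receptor kinase Acvrl1 (-3.63 ± 0.20) and Ramp2 (-3.82 ± 0.23), part of the adrenomedullin receptor. The summed signal of the 18 was 90464 to 121577 in normal lungs and 10271 to 25716 in tumours. The fibroblast markers fell beside Gpihbp1 as well, and the part of fewer vessels or of less normal lung stroma in its fall was not tested.

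Lpl, which macrophages, muscle and fat secrete, lay between 5761 and 11587 in normal lungs (median 7311), and tumours lay between 3902 and 10487 (median 7206). The difference was -0.24 ± 0.25 (limma adjusted p = 0.553), and both probe sets overlapped between the groups. Tumours 2 and 6, at 3902 and 4048, were below every normal lung, and the other 4 lay inside the normal range. Set against Gpihbp1 on the same array, the log2 ratio of Lpl, taken relative to the mean of the normal lungs, was -0.61 to 0.29 in normal lungs and 1.61 to 3.27 in tumours. This ratio was formed after the values were known and carries no test.

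Cd36, found on capillary endothelium and on macrophages, was lower in most tumours without passing on its brightest probe set. It lay between 16125 and 19875 in normal lungs (median 18128), and tumours lay between 5685 and 18332 (median 13851). The difference was -0.65 ± 0.24 (limma adjusted p = 0.0666). Of the tumours 5 were below the lowest normal lung, and tumour 4 was inside their range. The fit called it after quantile normalization (-0.97, limma adjusted p = 0.0113), with dim probe sets left out (limma adjusted p = 0.0428), and without tumour 1 or tumour 4 (limma adjusted p = 0.049 and 0.0281). Another of its 3 probe sets fell (-0.90 ± 0.24, limma adjusted p = 0.0114) and the remaining one did not pass (-0.65 ± 0.35). Tumours 6 and 2 were lowest on all 3 probe sets. Relative to Gpihbp1 on the same array the log2 ratio of Cd36 was -0.34 to 0.18 in normal lungs and 1.16 to 2.496 in tumours, again with no test.

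**Figure D3:**
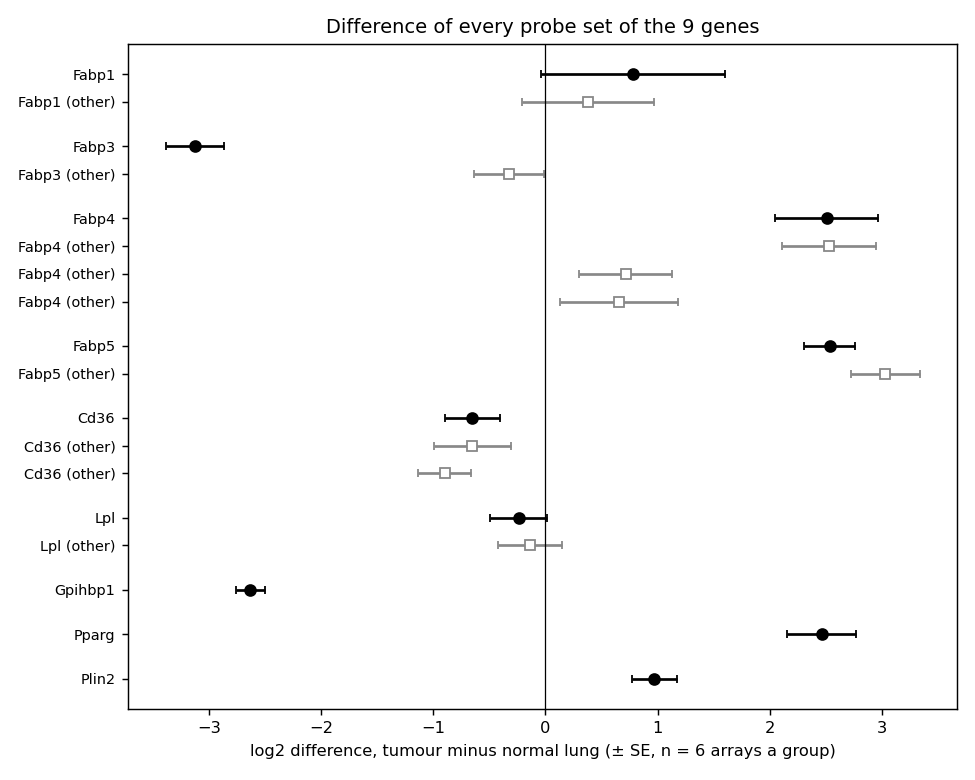
Log2 difference of tumours from normal lungs, with its standard error from 6 arrays a group, for all 18 probe sets of the 9 genes. Filled circles are the probe sets that represent a gene and open squares its other probe sets. All probe sets of a gene lie on the same side of 0, and the dim ones of Fabp3 and Fabp4 lie nearer to 0 than the filled circle.

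The 9 genes were also set side by side as 6 that macrophages make (Fabp1, Fabp4, Fabp5, Lpl, Pparg and Plin2) and 2 of capillaries (Gpihbp1 and Cd36), with Fabp3 in neither. The mean log2 signal of the 6 minus that of the 2, relative to normal lungs, was -0.52 to 0.31 in normal lungs and 2.67 to 3.98 in tumours. The mean shift was 3.14 with an SD of 0.53 among tumours and 0.30 among normal lungs. Without Fabp4 and Cd36, which both cell types make, and without Lpl, which is held at the capillary surface, 4 genes were set against Gpihbp1 alone and the shift was 4.32. Of the 3 genes left out, Fabp4 had risen and Lpl and Cd36 had not passed the test. No test was made of these means, since the genes were sorted with their values known. Within each side the members did not move alike. Among the macrophage genes 4 rose and Fabp1 and Lpl did not pass, and among the capillary genes Gpihbp1 fell and Cd36 did not pass.

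Other markers of alveolar macrophages were higher in part. Of 11 such markers, none of them a member, 6 rose and none fell, with a median difference of 1.03. They included Atp6v0d2, a proton pump subunit (2.01 ± 0.36), the lysosomal Cd68 (1.73 ± 0.34) and the mannose receptor Mrc1 (1.12 ± 0.23). The scavenger receptor Marco (1.45 ± 0.64, limma adjusted p = 0.118) and the lectin Siglecf (0.98 ± 0.45, limma adjusted p = 0.138), which define these cells, did not pass. Marco was called without tumour 2 (2.02, limma adjusted p = 0.00496), without the tumours that express Eif2s3y (1.71, limma adjusted p = 0.0144) and with array weights (1.95, limma adjusted p = 0.0134), and Siglecf with array weights (limma adjusted p = 0.0453). With Eif2s3y as a covariate 3 of the 11 rose. The summed signal of the 11 was 20192 to 32373 in normal lungs and 30215 to 94742 in tumours, and only tumour 2 lay inside the normal range.

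Pparg and the macrophage markers did not have the same order among tumours. The 2 tumours with the highest Pparg, numbers 6 and 2, had the lowest macrophage sums, 46603 and 30215, and tumour 1, with the highest sum, had Pparg at 817. Chil3 and Cd9 made up much of these sums, with 20827 and 15743 in tumour 6 and 3260 and 15348 in tumour 2. Cd9 itself was highest in tumours 6 and 2. The markers themselves were split in tumour 2: of the 11, 5 lay above all normal lungs (among them Mrc1 at 2585 and Atp6v0d2 at 1269), 4 inside their range and 2 below, which were Marco at 167 and the chitinase-like Chil3 at 3260. Tumours 6 and 2 also had the lowest sums of type II cell markers among tumours (120076 and 147441 against 221376 to 277364). They had the highest sums of 12 gastric and intestinal genes, 46265 and 31914, followed by tumour 4 at 28472, against 3707 to 11122 in the remaining tumours and 1830 to 2534 in normal lungs. In the same tumours Lpl, Cd36 and Fabp1 were not raised above normal lungs, Fabp1 being at 800.1 and 48.4. These orders rest on 6 tumours and were not tested.

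**Figure D4:**
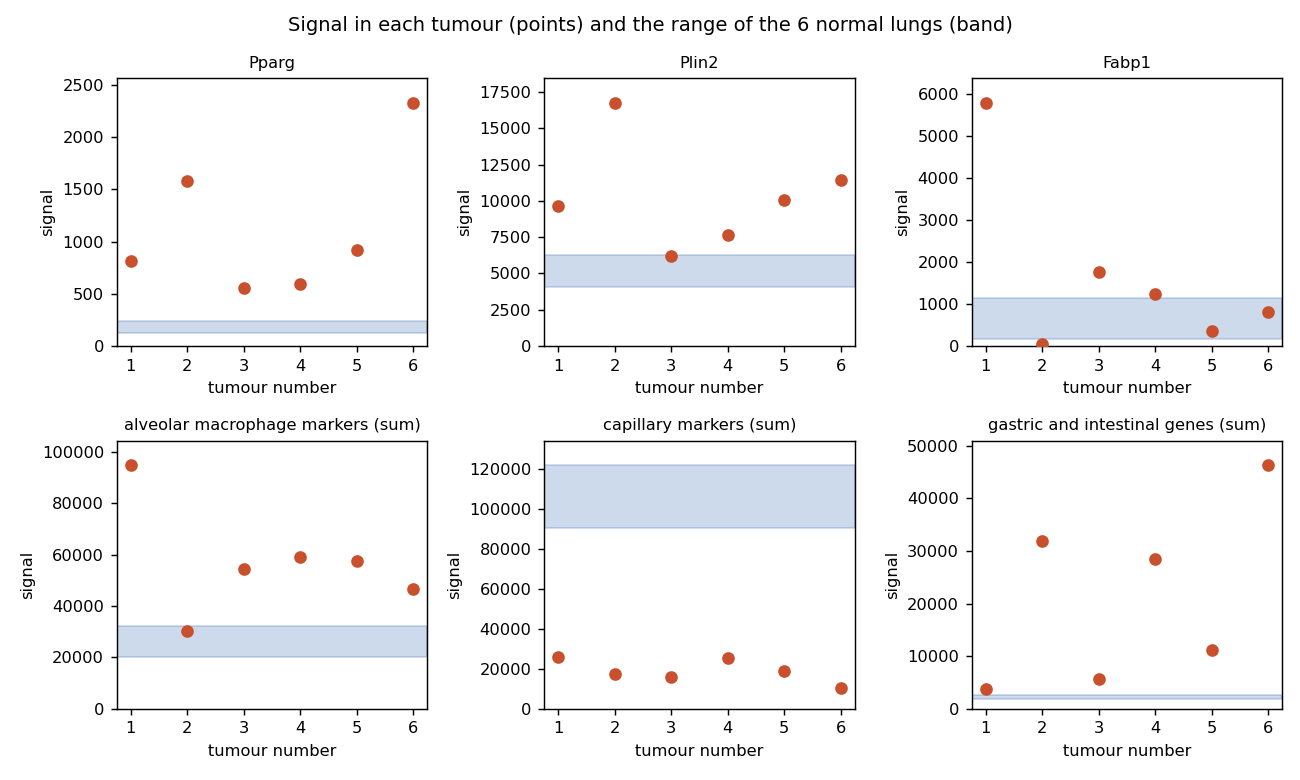
Signal of Pparg, Plin2 and Fabp1 and summed signal of alveolar macrophage, capillary and gastric or intestinal genes in each of the 6 tumours (points), with the range of the 6 normal lungs as a band, on linear axes from 0. Tumours 2 and 6 are highest for Pparg and Plin2 and lowest for the macrophage sum, in which the brightest genes weigh most.

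Of the wider pathway, partners of Pparg moved in both directions. The receptors that share its place or pair with it did not pass: Ppara (0.33 ± 0.65), Ppard (0.50 ± 0.29) and Rxra (-0.41 ± 0.18) had limma adjusted p-values over 0.05, and Ppara ranged from 12.3 in tumour 2 to 999 in tumour 5. Of 19 partner and regulator genes 4 rose and 3 fell, with a median difference of 0.26, beside 12.2% higher and 17.5% lower over all genes. The repressor Bhlhe40 rose from 842 ± 111 to 6343 ± 1864 (SD, n = 6), a difference of 2.85 ± 0.17 (limma adjusted p = 8.17e-08). The corepressor Nrip1 (0.78 ± 0.13), the adipogenic factor Cebpa (1.597 ± 0.36) and Csf2rb (1.33 ± 0.38, limma adjusted p = 0.0185) rose too. Csf2rb is a receptor chain of the cytokine that induces Pparg in alveolar macrophages. Its highest normal lung, number 1 at 4181, lay above all tumours except tumour 1. Its call was lost without normal lungs 2 and 4 (limma adjusted p = 0.0774). It was also lost without the tumours that express Eif2s3y (limma adjusted p = 0.312) and with Eif2s3y as a covariate (limma adjusted p = 0.187). Csf2ra, also on the list, did not pass (0.53 ± 0.30, limma adjusted p = 0.239). Those that fell were Cebpd (-1.02 ± 0.27), Cebpb (-0.48 ± 0.16, limma adjusted p = 0.0416) and the coactivator Ncoa2 (-0.40 ± 0.096). The call of Cebpb was lost without several single arrays (limma adjusted p = 0.00384 to 0.0894 with 1 array left out). It was also lost without normal lungs 2 and 4 (limma adjusted p = 0.0835) and with Eif2s3y as a covariate (limma adjusted p = 0.288). Without normal lungs 2 and 4, 3 of the 19 rose and 1 fell, and with Eif2s3y as a covariate 2 rose and 2 fell.

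Other genes listed as targets of Pparg did not rise. Which of them answer to Pparg in lung, rather than to other receptors, was not tested. Of 13 measured, none rose and 5 fell, with a median of -0.43, while 12.2% of all genes were called higher and 17.5% lower. Those that fell were Pdk4, the kinase that spares glucose (-2.80 ± 0.43, limma adjusted p = 1.93e-04), the carnitine transferase Cpt1a (-0.71 ± 0.13, but -0.04 with the mean over its probe sets, limma adjusted p = 0.92), Angptl4, a secreted inhibitor of lipoprotein lipase (-1.23 ± 0.32), the droplet protein Hilpda (-1.96 ± 0.52) and Adipoq (-1.75 ± 0.46). Without normal lungs 2 and 4, 3 of them fell, and with Eif2s3y as a covariate 2 did. The falls were not even among tumours. Hilpda was at 2989 and 2163 in tumours 2 and 6, inside the normal range of 2142 to 4422, and at 727 or less in the others. Angptl4 was highest in tumours 2 and 6 too, at 2167 and 1363 against 1520 to 2424 in normal lungs. Pdk4, Cpt1a and Adipoq did not have their highest signals in this pair of tumours. Of the listed genes, Cidec, Aqp7, Pck1 and Ucp3 were dim, with mean signals in both groups below the median over all probe sets. Among the members, the targets Fabp4 and Plin2 rose and Cd36 and Lpl did not pass.

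Genes that regulate lipoprotein lipase were mixed. Of 14 measured 3 rose and 3 fell, with a median of 0.13, beside 12.2% higher and 17.5% lower over all genes. Apoc1, an inhibitor of the lipase made by macrophages and liver, went from 769.5 ± 574.5 to 9797 ± 7104 (SD, n = 6), a difference of 3.15 ± 0.84 (limma adjusted p = 0.0125). Its highest normal lungs were numbers 2 and 4, those with liver transcripts, at 1510 and 1496. It was at 256 in tumour 2, below all normal lungs, and at 4831 or more in the other 5. The convertase Pcsk6, which can cleave the lipase, rose (1.73 ± 0.21), as did the lysosomal lipase Lipa (0.38 ± 0.13, limma adjusted p = 0.0386). The call of Lipa was lost without several single arrays (limma adjusted p = 0.00474 to 0.0844 with 1 array left out). It was also lost without normal lungs 2 and 4 (limma adjusted p = 0.112) and with Eif2s3y as a covariate (limma adjusted p = 0.107). The endothelial lipase Lipg fell (-3.02 ± 0.28), as did Angptl4 and Sort1 (-1.15 ± 0.34), a sorting receptor. Without normal lungs 2 and 4, 2 of the 14 rose and 1 fell, as with Eif2s3y as a covariate.

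Other proteins of the lipid droplet moved in both directions. Of 18 measured, Plin2 left out, 2 rose and 6 fell, with a median of -0.30, beside 12.2% higher and 17.5% lower over all genes. Plin3, the coat protein of nascent droplets, rose (0.59 ± 0.15), as did Cideb (2.12 ± 0.36). Plin4 (-1.13 ± 0.25), a coat protein of fat cells, and Plin5 (-1.16 ± 0.23), that of oxidative tissue, fell. So did the lipases Lipe (-1.83 ± 0.19) and Mgll (-1.27 ± 0.33), with Hilpda and Cidea (-1.82 ± 0.55). Without normal lungs 2 and 4, 4 fell, and with Eif2s3y as a covariate 3 did. Adipocyte markers fell in 4 of 7 cases, in 2 without normal lungs 2 and 4 and in 0 with Eif2s3y as a covariate. The part of fat in these falls was not tested.

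Enzymes that activate fatty acids after uptake rose in part. Of 14 uptake and activation genes 4 rose and 4 fell, with a median of 0.27, beside 12.2% higher and 17.5% lower over all genes. The acyl-CoA synthetases Acsl5 (0.79 ± 0.11), Acsl4 (1.36 ± 0.24) and Acsl3 (1.07 ± 0.25) rose, as did the acyl-CoA binding protein Dbi (0.48 ± 0.16, limma adjusted p = 0.0358). The call of Dbi was lost after quantile normalization (0.31, limma adjusted p = 0.156), with the replicate block (limma adjusted p = 0.0684) and without any one of 9 arrays. The transport proteins Slc27a2 (-2.16 ± 0.37) and Slc27a3 (-1.88 ± 0.41) fell, as did the receptors Lrp1 (-0.97 ± 0.14) and Scarb1 (-0.43 ± 0.13). Slc27a2 and Slc27a3 were dim, with mean signals in both groups below the median over all probe sets. With Eif2s3y as a covariate 2 of the 14 fell. Acsbg1, another synthetase, was at 2613 in tumour 2 and 3475 in tumour 6 and at 16.3 or less in the other tumours, and did not pass (1.66 ± 1.21).

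Genes of fatty acid oxidation in mitochondria passed the test about as often as genes at large. Of 20 measured 3 rose and 2 fell, beside 29.6% called in either direction over all genes, with a median of 0.15. The dehydrogenases Acadl (0.63 ± 0.12) and Acads (0.49 ± 0.11) and the electron carrier Etfb (0.72 ± 0.14) rose, and Cpt1a and Hadhb (-0.44 ± 0.10) fell. With the mean over the probe sets of a gene neither fall was called (Cpt1a -0.04 and Hadhb -0.27, limma adjusted p = 0.92 and 0.0754), nor was the rise of Acadl (0.44, limma adjusted p = 0.0902). Without tumour 2, 6 of the 20 rose. The 6 remaining Fabp family genes measured were dim, with mean signals in both groups below the median over all probe sets. Of them Fabp7 rose (1.32 ± 0.40, limma adjusted p = 0.0248) and Fabp12 fell (-0.93 ± 0.31, limma adjusted p = 0.0397). Both calls were lost with the replicate block (limma adjusted p = 0.0734 and 0.0576), and each without several arrays. In the RefSeq order of genes, Fabp5, Pmp2, Fabp9, Fabp4 and Fabp12 lie next to each other, and of these 5 neighbours Fabp4 and Fabp5 rose, Fabp12 fell and the others did not pass.

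**Figure D5:**
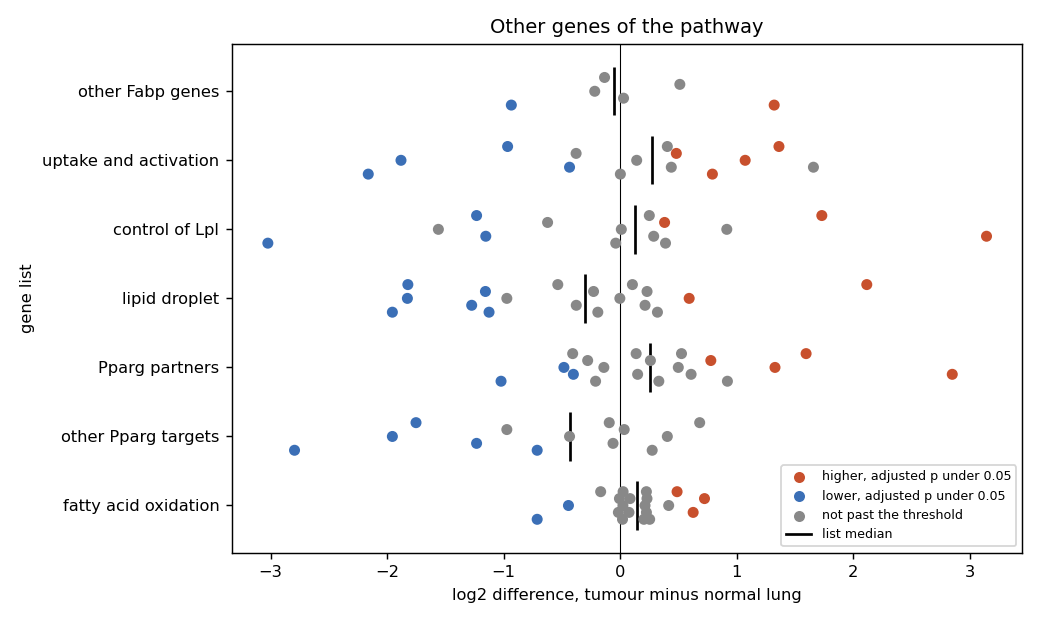
Log2 difference of tumours from normal lungs for each gene of 7 lists of the pathway, members left out, with genes that passed the test in colour and the median of each list as a bar. The list of other Pparg targets holds 5 lower and no higher calls, and the oxidation genes lie between -0.71 and 0.72.

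Genes whose deviations from their group means ran most like those of a member were found over the 12 arrays among 9095 others brighter than the median gene. These likenesses are a description, each being the highest of many, and they carry no p. For Pparg they were Pdha1 (r = 0.936), Rap2b, Hpcal1, Pdcd10 and Rpp30 (r = 0.922), of which Rap2b rose in tumours and the others did not pass. For Gpihbp1 they were Pdrg1 (r = 0.942), Abt1, Ubac2, Pon1 and Mrtfb (r = 0.843), of which Pdrg1, Pon1 and Mrtfb fell. For Fabp1 they were Zfp24 (r = 0.939), Cipc, Slc36a4, Dubr and Sec24a (r = 0.919), of which Dubr fell. For Fabp3 they were Chsy1 (r = 0.916), Limch1, one of the fibroblast markers, Ckmt2, the mitochondrial creatine kinase of muscle, Spa17 and Gpbp1l1 (r = 0.879), of which Limch1, Ckmt2 and Spa17 fell.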

How the data were processed

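RNA of 6 tumours and 6 normal lungs was hybridised as biotin-labelled product, 1 array a sample, and groups came from the sample titles. The authors deposited 1 linear signal intensity for each probe set and array. MAS5 is the tool named in the submitters' processing notes, and its version is not given in the sources used here. The 2% trimmed mean was 500.0 on every array and no value was missing, so this scaling was kept. Of 45101 probe sets 64 array controls were left out. Symbols came from GEO's platform annotation, checked through gene identifiers against RefSeq (none changed): 34945 probe sets had 1 symbol, 932 several and 9160 none listed.

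Values were taken as log2(signal + 16) and the groups were compared by limma (version 3.58.1, R 4.3.3), using lmFit and then eBayes with a trend on mean level and no covariate, and with Benjamini-Hochberg adjustment over all 45037 probe sets and a threshold of 0.05, two-sided. Tables were made with Python 3.11.15, pandas 2.3.3 and numpy 2.4.6 and figures with matplotlib 3.10.9. On simulated arrays with 200 of 45037 probe sets changed, the fit recovered 4% of log2 changes of 0.5, 58% of changes of 1 and 76% of changes of 2, with 7 false calls. Far more genes passed in the data (29.6%), so the adjusted threshold was stricter in the simulation. These shares therefore do not give the recovery in the data. The named genes are the members and, in each list, those with the smallest adjusted p on each side (up to 3); other list genes named, and the log2 ratios to Gpihbp1, were picked with values in view. The members, lists, tests and alternatives were chosen with earlier results of these data known. Alternatives were the offset, 2 scalings, a filter on dim probe sets, no trend, array weights, the replicate number as a block, the mean of probe sets, and leaving out arrays. Pseudogenes of Fabp3 and Fabp5 are annotated, and whether these probe sets pick them up was not tested.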

Additional observations from a re-analysis of the deposited data

Results flagged for a closer look

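In 18 groups of 6 arrays (9 genes in 2 groups), 2 arrays lay farther from the others than Dixon's criterion allows on the linear signals. The criterion's rate of about 1 in 20 by chance assumes normally distributed values, which was not checked for linear signals. Fabp4 in normal lung 2 was at 3923, with a gap to the next normal lung of 0.936 of the group's whole range. Fabp1 in tumour 1 was at 5788, with a gap of 0.702 of the range. In log2 relative to the mean of normal lungs, Fabp4 was at 2.34 in normal lung 2 and -0.786 to -0.206 in the other normal lungs. On that scale Fabp1 was at 3.64 in tumour 1, 1.93 in the next tumour and -2.85 in the lowest, so tumour 1 stood less apart.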

How the results depend on the processing

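The 4 genes called higher and the 2 called lower kept their direction and their call under all 24 alternatives, and leaving out 1 array at a time gave 4 members higher and 2 to 3 lower, the added one being Cd36. The count of all genes higher in tumours, 2216, was 3498 after median centring and 1320 with Eif2s3y as a covariate; over single arrays left out it was 1905 to 2319, and the count of genes lower was 2855 to 3267 around 3176. The median difference of all probe sets moved from -0.06 to 0.05 with quantile normalization and to 0.13 with median centring, and no member changed sign. The macrophage minus capillary shift of 3.14 was 4.32 without shared members and 2.98 to 3.24 with 1 array left out. Replicate numbers did not pair the samples: deviations of same-numbered arrays correlated at -0.018 to 0.0217 and no normal lung was nearest its own number. The fit with the replicate number as a block gave 4 members higher, 2 lower, 1982 genes higher and 2890 lower. Signals near the array median limit Pparg in normal lungs and Fabp3 in tumours. Differences that did not pass changed sign for Ppara (0.33; -0.18 without the tumours that express Eif2s3y, -0.042 with it as a covariate, -0.087 to 0.946 with 1 array left out) and for Fabp9 (-0.13; 0.056 after median centring, -0.30 to 0.023 with 1 array left out). Eif2s3y itself was at -0.43 without the tumours that express it, by construction. The covariate fit cannot be read for Eif2s3y, from which it is made. After quantile normalization 2527 genes were higher and 2913 lower, and after median centring 3498 and 2341. Among the genes named, the calls of Cebpb, Ncoa2, Scarb1, Hadhb, Pdrg1 and Fabp12 were lost after median centring. With the mean over the probe sets of a gene those of Dbi, Scarb1, Sort1, Ncoa2, Cebpb, Cpt1a, Acadl, Hadhb, Tnni2, Rap2b, Pdrg1 and Mrtfb were lost. The cause of the other changes was not tested.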
